A study of Mus musculus with 8 samples.

Results

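Txnip encodes thioredoxin-interacting protein, and it was described here with its 4 measured relatives of the alpha-arrestin family, Arrdc1, Arrdc2, Arrdc3 and Arrdc4, and with Mlx and Mlxip, which encode the 2 partners of a sugar-sensing transcription factor. These 7 genes were taken by name from the 12367 genes of the deposited table, and all 7 passed the filter on low values. Membership was chosen by the measured signal of Txnip, which was much lower in the mutant cells, in the same 8 libraries described here. The values of Txnip are therefore given as a description with no test. The other 6 members came in by family or as the sugar-sensing pair, with earlier results of these data known. A count over them is thus also a description.

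The samples were alveolar macrophages, which clear surfactant and particles from the air spaces of the lung, from untreated mice of 3 weeks. They were sorted from digested lung as CD45+ F4/80+ CD11c+ cells. Controls, called WT, were Tfam-fl/fl mice, and mutants, called KO, were CD11c-Cre Tfam-fl/fl mice, so every mouse carried the floxed alleles and none carried the Cre alone. Tfam encodes the protein that packages mitochondrial DNA and is needed to transcribe it. The CD11c promoter also acts in dendritic cells and other CD11c+ cells. There were 4 libraries of either genotype, with the cells of 3 to 5 mice, male and/or female, combined in each. The study asks what oxidative phosphorylation does in tissue macrophages, and the comparison is KO against WT.

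Alpha-arrestins are adaptor proteins that bring ubiquitin ligases to membrane proteins and so send these into the cell. Txnip binds reduced thioredoxin and lowers the amount of glucose transporter at the cell surface. Its gene is a classic target of MondoA, the product of Mlxip, which sits at the outer mitochondrial membrane, senses glucose phosphates and enters the nucleus with its partner Mlx. There the pair binds carbohydrate response elements, which are built of E-box-like elements set a short, fixed distance apart. Arrdc4 is another reported target of the pair.

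The stretches in front of Txnip and Arrdc4 are shown because these were the members with the largest falls. The sequences are RefSeq windows of build GRCm38.p6, from 250 bases before the gene start to 50 after it, on the strand of the gene. All 7 genes had such a window. Capitals mark every E-box-like element CACGNG and every CCAAT box, on either strand.
Txnip (chr3:96557707-96558006, plus strand): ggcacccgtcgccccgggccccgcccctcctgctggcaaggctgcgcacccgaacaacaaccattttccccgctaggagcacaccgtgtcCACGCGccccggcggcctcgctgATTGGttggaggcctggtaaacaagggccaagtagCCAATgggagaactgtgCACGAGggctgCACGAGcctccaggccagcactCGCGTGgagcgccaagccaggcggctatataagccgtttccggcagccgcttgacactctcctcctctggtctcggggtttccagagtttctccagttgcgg
Arrdc4 (chr7:68749189-68749488, minus strand): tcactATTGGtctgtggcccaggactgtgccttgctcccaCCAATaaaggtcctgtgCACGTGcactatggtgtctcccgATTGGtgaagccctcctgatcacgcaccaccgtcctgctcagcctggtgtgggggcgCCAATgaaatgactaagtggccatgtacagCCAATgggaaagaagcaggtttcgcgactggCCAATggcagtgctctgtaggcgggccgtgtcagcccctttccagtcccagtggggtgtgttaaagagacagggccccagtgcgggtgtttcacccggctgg

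The Txnip window held a paired form, 2 CACGNG elements on 1 strand with 5 bases between them, from 85 to 69 bases before the start. The letters there were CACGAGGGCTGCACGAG. Read on both strands, this form was found in 16 of 32851 windows of the same length (0.0487%), and among the 7 genes in Txnip alone. Single CACGNG elements, on either strand, lay at 4 places in the Txnip window, the pair included, at 2 in Arrdc1 and at 1 each in Arrdc2, Arrdc4 and Mlx. None was in the windows of Arrdc3 or Mlxip, and 27.5% of all windows held at least 1. Those of Arrdc4 and Mlx were full E-boxes, CACGTG, which are a case of CACGNG and which 7.15% of all windows held. CCAAT boxes, read on both strands, numbered 6 in Arrdc4, 3 in Arrdc2, 2 each in Txnip, Mlx and Mlxip, 1 in Arrdc3 and 0 in Arrdc1, and 37.4% of all windows held at least 1. The forkhead letters GTAAACA, read on both strands, were at 1 place in Txnip and in none of the other windows, against 3.65% of all windows. A match is a run of letters, and binding was not measured.

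The labels were checked with Tfam, which was 26.1 to 35.2 in WT and 3.52 to 5.08 in KO (log2 fold change -2.55, SE 0.117, adjusted p by limma = 1.02e-06). Values throughout are the deposited signal, in reads scaled to library size. Differences are KO minus WT of log2(value + 1), and low genes change by more than this scale shows. Between 20243772 and 30263201 reads per library fell in the listed genes, as read from the spacing of the values. Of 15 alveolar macrophage markers 4 rose, 6 fell and 5 did not pass, where 18.7% of all genes rose and 20.0% fell. The part of these markers in the results was not tested. Chil3, an abundant macrophage chitinase-like gene, was at 22376 to 25450 in WT and 24490 to 30293 in KO and did not pass. Siglecf, a surface receptor of these cells, fell from 501 ± 37.6 to 194 ± 20.9, and Fabp1, Ear1 and Ear2 also fell without overlap, with means of 180 and 11.2, 845 and 123, and 2245 and 477 in WT and KO. Carbonic anhydrase Car4 rose from 723 ± 122 to 1336 ± 190. Of 9 tested markers of interstitial macrophages and monocytes 6 rose and 0 fell, against 18.7% and 20.0% of all genes. The counts of the lists below stand beside the same shares. The complement gene C1qa, for example, was at 2.54 to 7.95 in WT and 8.27 to 29.3 in KO. Itgax, which encodes the CD11c used for the sort and whose promoter drives the Cre, was 1094 ± 48.5 in WT and 2050 ± 202 in KO. Adgre1, which encodes the F4/80 used for the sort, was 476 ± 62.4 in WT and 301 ± 22.8 in KO. The summed level of the interstitial and monocyte list was 548 to 815 in WT and 583 to 914 in KO. Markers of dendritic cells summed to 16.3 to 22.2 in WT and 17.3 to 29.7 in KO, with 1 of 7 tested higher. Neutrophil markers summed to 93.1 to 137 and 111 to 152, with 1 of 5 tested higher and 2 lower, epithelial markers to 157 to 256 and 213 to 271, with 1 of 10 higher, and endothelial and stromal markers to 29.5 to 133 and 43.7 to 80.4, with 1 of 9 higher. Erythroid markers summed to 25.3 to 60.7 in WT and 12.9 to 68 in KO, with 0 of 4 called, and the 1 lymphocyte marker measured, Ms4a1, was at most 1.47. The 6 eosinophil and basophil markers were not analysed here. The part of other cells in the results below was not tested. In sorted bulk cells, fewer cells that express a gene and less RNA per cell cannot be told apart.

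Txnip was among the most abundant transcripts of the control cells and fell out of that range in KO. By replicate number, the WT libraries had a signal of 813, 1249, 719 and 1164. The KO libraries had 130, 104, 117 and 184. The lowest WT library was thus far above the highest KO library. The means were 986 ± 259 in WT and 134 ± 35.4 in KO (SD, n = 4), a 7.37-fold difference and a log2 fold change of -2.87 (SE 0.212). Among all rows it ranked between 55 and 159 by value in the WT libraries, and between 1051 and 2024 in the KO libraries. Among 12163 tested genes the fall was the 22nd largest by log2 fold change. The gene lies at chr3:96557957-96561883 on the plus strand (ENSMUSG00000038393, GRCm38), and 2304 to 34931 reads per library stood behind its values.

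**Figure D1:**
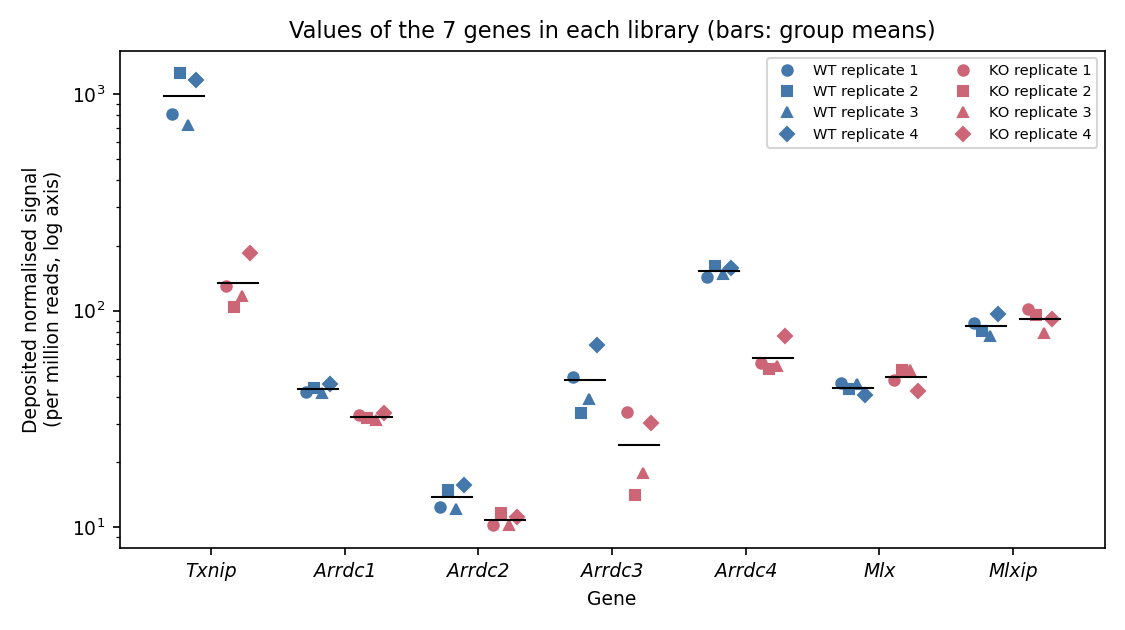
Deposited scaled signal on a log axis for each of the 7 genes, with WT libraries in blue, KO libraries in red, 1 marker shape per replicate number and a bar at each group mean. Txnip was 719 to 1249 in WT and 104 to 184 in KO, and the Mlx and Mlxip groups overlapped.

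A long noncoding gene, Gm15441, runs along all 3927 bases of Txnip on the opposite strand and has a row of its own. Whether the counting used strand is not given in the sources used here, so reads of this pair may not be fully separated. By replicate number, the WT libraries had 7.36, 6.16, 2.46 and 1.18 and the KO libraries 1.58, 0.561, 0.483 and 0.85. The antisense gene was thus low in all libraries, its groups overlapped, and the Txnip value was 82.4 to 984 times as high in the same library. Its log2 fold change was -1.34 (SE 0.401, adjusted p by limma = 0.0249, and 0.00451 with the replicate number as a block). The call was lost without WT replicate 1 (adjusted p = 0.0643), WT replicate 2 (0.0702), KO replicate 2 (0.0623) or KO replicate 3 (0.0663), and with voom weights (0.068).

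Of the 6 other members, 4 were lower in KO, 0 were higher and 2 did not pass the test. The same test called 38.7% of the 12163 genes, 20.0% as lower and 18.7% as higher. The 4 that fell were the 4 other alpha-arrestins, and the 2 that did not pass were Mlx and Mlxip. WT and KO values did not overlap for Txnip, Arrdc1, Arrdc2 and Arrdc4, which were lower in KO. Of all genes, 19.6% were lower and 18.1% higher without overlap.

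Arrdc4, a close relative of Txnip that also acts on glucose uptake, had the largest fall of the 6. The 4 WT libraries, by replicate number, had 143, 161, 148 and 157. The 4 KO libraries had 57.2, 53.8, 55.4 and 76.2. The WT libraries lay close together, and KO replicate 4 was above the other KO libraries but far below WT. Means were 152 ± 8.22 and 60.7 ± 10.4 (SD, n = 4), and the fitted log2 difference was -1.33 (SE 0.104, adjusted p by limma 1.44e-05). The gene lies at chr7:68736995-68749241 on the minus strand, and no other annotated gene overlaps it.

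Arrdc3, an adaptor known for the traffic of adrenergic receptors and integrins, fell with wide spread. The WT libraries, by number, were at 49.2, 33.6, 39.2 and 69.7. The KO libraries were at 33.9, 14, 17.8 and 30.4. The groups overlapped, since KO replicate 1 was level with WT replicate 2, although KO was lower than WT for each of the 4 replicate numbers. Means were 47.9 ± 15.9 and 24 ± 9.64, and the fitted log2 difference was -1 (SE 0.296, adjusted p by limma 0.0236). The call was lost without WT replicate 1 (adjusted p = 0.0564), WT replicate 4 (0.0525), KO replicate 2 (0.0583) or KO replicate 3 (0.0668). With the replicate number as a block the SE was 0.111 and the adjusted p by limma 0.000142, in a fit that called 46.7% of all genes. The gene lies at chr13:80883384-80896042 on the plus strand, and 1301 of its bases are shared with 1700023H06Rik on the opposite strand, which was not analysed here.

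Arrdc1, which is known for the budding of small vesicles from the plasma membrane, fell by a small and even amount. Its signal was 42.3, 43.8, 41.5 and 45.6 in WT and 32.9, 31.8, 31.3 and 33.7 in KO, in the order of the replicate numbers. No KO library reached the lowest WT library. The log2 fold change was -0.41 (SE 0.0558, adjusted p by limma = 0.000355). It lies at chr2:24925352-24935252 on the minus strand, with no overlapping gene.

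Arrdc2, a less studied member of the family, had the lowest level per length of the 7. Its signal was 12.4, 14.9, 12.1 and 15.6 in WT and 10.2, 11.6, 10.2 and 11.1 in KO. The highest KO library was just below the lowest WT library. The log2 fold change was -0.32 (SE 0.0991, adjusted p by limma = 0.0301, and 0.0109 with the replicate block). This call was lost without WT replicate 2 (adjusted p = 0.0857), WT replicate 4 (0.0663), KO replicate 1 (0.0747) or KO replicate 3 (0.0771), and under quantile normalisation (0.0593). The gene lies at chr8:70835129-70839720 on the minus strand.

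Mlx, the partner that MondoA needs to bind DNA, did not pass the test, although it was higher in KO for each of the 4 replicate numbers. Its signal was 46.2, 43.5, 45.9 and 40.7 in WT and 47.8, 53, 53.4 and 42.7 in KO, and the groups overlapped. The log2 fold change was 0.15, with a 95% interval of -0.03 to 0.33 (adjusted p by limma = 0.171, and 0.07 with the replicate block). It passed the test without KO replicate 4 (0.22, adjusted p = 0.035) and with array quality weights (0.18, adjusted p = 0.0444). The gene lies at chr11:101087277-101092207 on the plus strand, and 385 of its bases are shared with Psmc3ip on the opposite strand, whose value was at most 3.05.

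Mlxip, which encodes MondoA, did not pass either. Its signal was 87.4, 80.3, 76.5 and 96.8 in WT and 102, 95.6, 78.5 and 91.6 in KO. The groups overlapped almost fully. The log2 fold change was 0.11, with a 95% interval of -0.11 to 0.32 (adjusted p by limma = 0.41), which bounds a difference in either direction but does not show that the genotypes are alike. It lies at chr5:123394798-123457932 on the plus strand. It overlaps Gm43813 (5378 shared bases), Gm42907 (2148) and Gm42908 (870) on the same strand and Gm15747 (3160) on the opposite one. None of them was analysed here. Shared bases, here and for the other genes, were counted over whole gene spans with introns. Whether reads are split between such genes was not tested. The ratio of the deposited Mlx value to the Mlxip value within a library was 0.42 to 0.6 in WT and 0.466 to 0.68 in KO. The ChREBP gene Mlxipl and the fifth Arrdc gene were not analysed here.

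**Figure D2:**
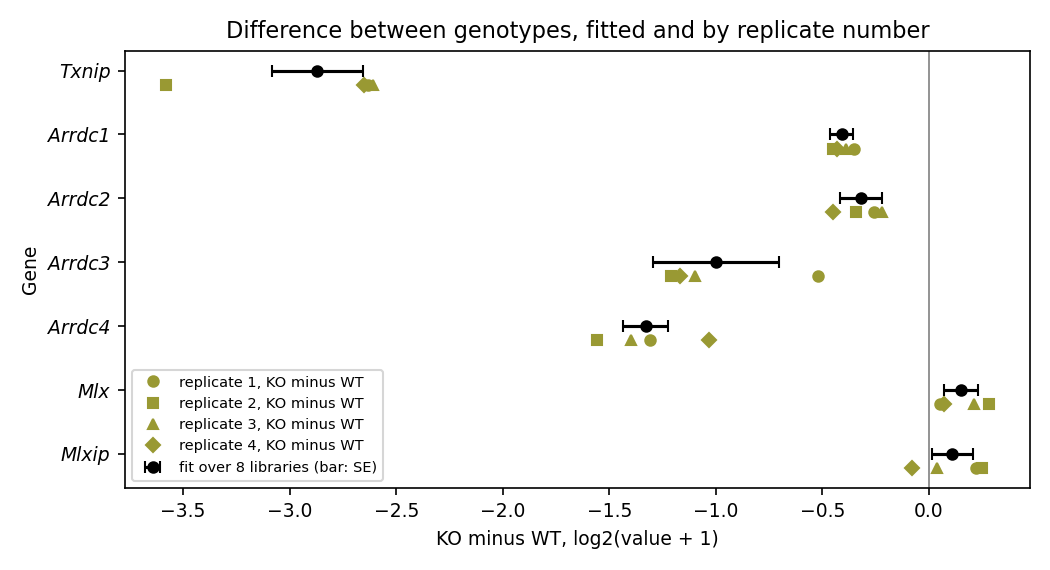
KO minus WT on the log2(value + 1) scale for each gene, with the fitted difference and its SE in black and the difference within each replicate number in olive. Txnip, Arrdc1, Arrdc2, Arrdc3 and Arrdc4 were lower for all 4 numbers, and Mlx was higher for all 4 by 0.05 to 0.28.

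Within the replicate numbers the fall of Txnip was 2.63, 3.58, 2.61 and 2.65 log2 units for numbers 1 to 4. The pair with number 2 thus differed most, and the other 3 pairs nearly coincided. Number 2 held the highest WT library and the lowest KO library. The Arrdc4 differences were -1.31, -1.56, -1.4 and -1.03. Those of Arrdc1 lay between -0.45 and -0.35, and those of Arrdc2 between -0.45 and -0.22.

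Levels of different genes were compared per kilobase of merged exons of GENCODE M21. In WT the order was Txnip (316 ± 83.1), Arrdc4 (37.7 ± 2.04), Mlx (22.1 ± 1.28), Arrdc1 (17.3 ± 0.725), Mlxip (10.2 ± 1.07), Arrdc3 (7.65 ± 2.53) and Arrdc2 (4.25 ± 0.55), all as scaled signal per kilobase (SD, n = 4). Of neighbours in this order, the libraries of Mlxip and Arrdc3 overlapped and the others did not. In KO Txnip was still first at 42.9 ± 11.3, and Mlx came second at 24.6 ± 2.53, ahead of Arrdc4 at 15 ± 2.58. Arrdc4 and Arrdc1 (12.9 ± 0.418) overlapped in KO, as did Arrdc3 (3.83 ± 1.54) and Arrdc2 (3.34 ± 0.21), while Mlxip stood between these pairs at 11 ± 1.2.

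The summed level of the 5 alpha-arrestins was 293 to 467 in WT and 65 to 99.6 in KO on this per-kilobase scale. Txnip made up 78.5% to 85.6% of that sum in the WT libraries and 51.1% to 59.3% in the KO libraries. The share of Arrdc4 was 8.54% to 12.5% in WT and 18.3% to 20.5% in KO. Since Txnip was chosen for its fall, these shares and the ratio that follows are descriptions. The ratio of the deposited Txnip value to the Arrdc4 value, which no scaling of a library by 1 factor can change, was 5.69, 7.75, 4.86 and 7.42 in the WT libraries by number, and 2.28, 1.93, 2.11 and 2.42 in the KO libraries.

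**Figure D3:**
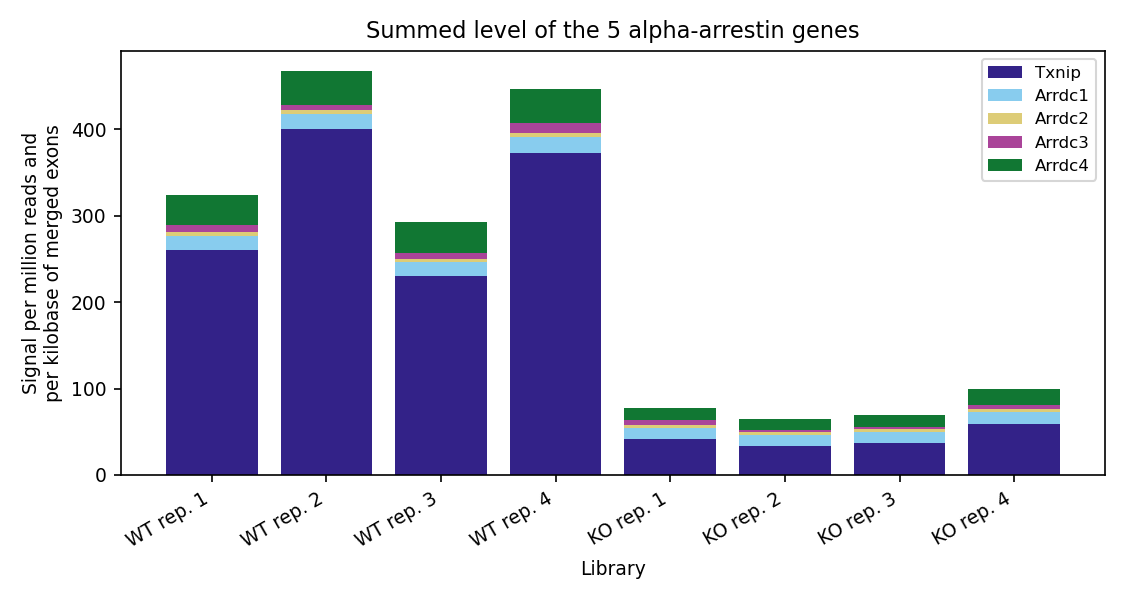
Scaled signal per kilobase of merged exons, stacked over the 5 alpha-arrestin genes, 1 bar per library. The stacks reached 293 to 467 in WT and 65 to 99.6 in KO, and the Txnip part was 78.5% to 85.6% and 51.1% to 59.3% of them.

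Txnip and Arrdc3 varied much more between pools of one genotype than most genes. The SD around the group means was 0.37 log2 units for Txnip and 0.52 for Arrdc3, against a median of 0.13 over the 12163 tested genes. These are at percentiles 92.8 and 96.5 of those genes. Arrdc1 was at the other end with an SD of 0.05, at percentile 4.41. The deviations of Arrdc3 followed the replicate number in both genotypes, with numbers 1 and 4 above the group mean and numbers 2 and 3 below it. Those of Txnip did so only in part: number 2 was 0.38 above its mean in WT and 0.33 below it in KO. Number 3 was at -0.42 in WT and -0.16 in KO, and number 4 at 0.28 and 0.49. Number 1 was at -0.24 in WT and 0 in KO.

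Around the group means, Txnip varied together with 2 of its relatives. Over the 8 libraries the deviations of Txnip correlated at 0.87 with those of Arrdc1 and at 0.83 with those of Arrdc4. Of 12162 other genes, 0.88% and 1.66% respectively had an r at least as high. With Arrdc2 the value was 0.64, with Arrdc3 0.46 and with Mlxip 0.26. With Mlx it was -0.86, and 0.83% of genes had an r as low or lower. The genes of a library share its pool and its depth, so these values describe the 8 pools only. Likeness to Txnip was also ranked among 6081 other genes of at least median signal. With the group means kept, the most like were Tifab (r = 0.998), Gal (0.995), Arrdc1 (0.994), Vrk1 (0.993) and Dcps (0.993). All of these were lower in KO. Such an r includes the genotype difference that Txnip was chosen for, so this ranking is a description and no sign of shared variation within a genotype. With the group means removed they were Fbxl14 (0.982), 2410006H16Rik (0.97), Tifab (0.964), Cdc123 (0.95) and Emg1 (0.941).

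**Figure D4:**
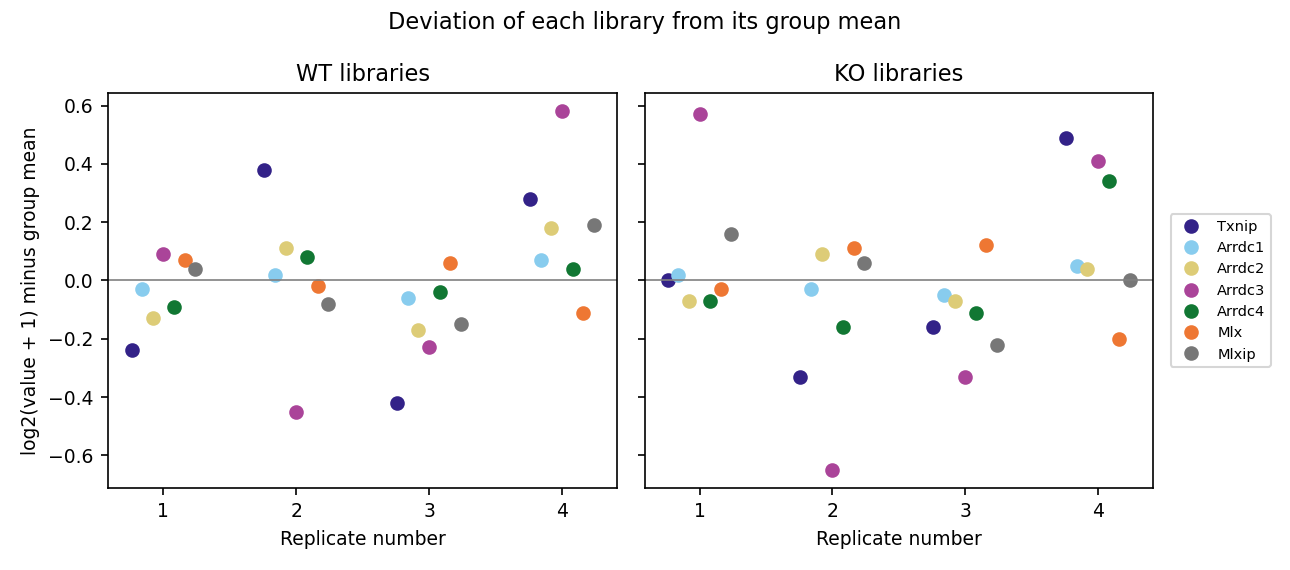
Deviation of each library from its group mean on the log2(value + 1) scale, by replicate number, with WT on the left and KO on the right and 1 colour per gene. Arrdc3 was high at numbers 1 and 4 and low at 2 and 3 in both panels, and Txnip at number 2 was at 0.38 in WT and -0.33 in KO.

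Other genes reported as targets of MondoA or ChREBP did not share 1 direction. Of 15 measured, 3 rose, 5 fell and 7 did not pass, where 18.7% of all genes rose and 20.0% fell, with a median log2 fold change of -0.04 against -0.00633 over all genes tested. Klf10, a zinc-finger repressor induced by glucose, was 232 to 280 in WT and 124 to 155 in KO (log2 fold change -0.93, SE 0.0863, adjusted p by limma = 3.73e-05). Gpd1, which makes glycerol phosphate from a glycolytic intermediate, went from 36.9 ± 10.7 to 3.45 ± 0.788 and the fatty acid elongase Elovl6 from 22.3 ± 4.94 to 9.25 ± 1.18, and both fell. Hexokinase Hk2 rose from 34.7 ± 4.5 to 66.5 ± 7.42, and so did the desaturase Scd1, from 8.74 ± 5.79 to 31.2 ± 13.7, and malic enzyme Me1, from 0.956 ± 0.537 to 3.37 ± 1.16. The list had 3 lower members at an adjusted p under 0.01.

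In the wider MYC-MAX-MLX network of transcription factors, 1 of 8 genes rose and 3 fell, against 18.7% and 20.0% of all genes. Mxd4, which opposes MYC as a partner of MAX and can also pair with Mlx, went from 102 ± 8.72 to 53.5 ± 10.3 (log2 fold change -0.93, adjusted p by limma = 0.000315). Mxd3 fell from 5.41 ± 1.52 to 1.27 ± 0.502, and Mxi1 rose from 114 ± 9.04 to 150 ± 6.89. Myc was 62.5 to 93.9 in WT and 62.6 to 92.7 in KO, and Max was 54.3 to 64.2 and 48.8 to 61.4, and neither passed. In this list 2 genes rose without WT replicate 4, without both replicate-4 libraries and with array quality weights. The 3 lower genes include Mxd1 (log2 fold change -0.27, adjusted p by limma = 0.0403), whose call was lost in 10 of 21 alternatives. The lower count was 2 under quantile normalisation or median centring and 4 with the replicate block.

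Genes of hexose uptake and phosphorylation, the step before the sugar signal that MondoA reads, included 3 of 9 that rose and 0 that fell, against 18.7% and 20.0% of all genes. Slc2a1, which encodes the glucose transporter GLUT1 that Txnip and Arrdc4 remove from the surface, was 13.1 to 14.2 in WT and 40 to 58 in KO (log2 fold change 1.8, SE 0.103, adjusted p by limma = 2.57e-06). Hk2 is also in this list, and Hk3 rose from 31.8 ± 5.04 to 45.7 ± 5.41. Hk1 was 17 ± 1.11 in WT and 16.8 ± 1.49 in KO and did not pass.

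Thioredoxins, which include the best known partner of Txnip, were listed with thioredoxin-like genes and thioredoxin reductases. Of these 10 genes 7 rose and 0 fell, against 18.7% and 20.0% of all genes, with a median log2 fold change of 0.31. Thioredoxin-like genes were among the 7, such as Txnl4a (log2 fold change 0.45, adjusted p by limma = 0.0133). Thioredoxin itself, Txn1, was 278 to 340 in WT and 407 to 492 in KO (log2 fold change 0.50, SE 0.0767, adjusted p by limma = 0.000728). The reductase Txnrd1 rose from 164 ± 18.2 to 242 ± 26.6 and the mitochondrial reductase Txnrd2 from 18.5 ± 0.551 to 22.3 ± 1.32. Mitochondrial thioredoxin, Txn2, was 73.9 ± 3.72 in WT and 80.8 ± 2.82 in KO and did not pass. The ratio of the deposited Txnip value to the Txn1 value was 2.26 to 4.19 in the WT libraries and 0.255 to 0.412 in the KO libraries. At an adjusted p under 0.01 the list had 4 members higher.

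Ubiquitin ligases of the NEDD4 type bind alpha-arrestins. Of 10 genes for such ligases and their adaptors 4 rose and 0 fell, against 18.7% and 20.0% of all genes. Itch, the ligase reported to mark Txnip protein for breakdown, was 92.4 to 114 in WT and 113 to 129 in KO. Its log2 fold change was 0.23 (adjusted p by limma = 0.029, and 0.00604 with the replicate block). That call was lost without WT replicate 1 (adjusted p = 0.063), WT replicate 2 (0.0645), WT replicate 3 (0.076), KO replicate 2 (0.0774) or KO replicate 4 (0.0614). Smurf1 rose from 28.8 ± 1.72 to 99.9 ± 28.7, the adaptor Ndfip2 from 54.1 ± 6.08 to 72.6 ± 5.92 and Nedd4l from 6.69 ± 1.15 to 9.72 ± 0.626. Among 5 other genes of the arrestin fold 1 rose and 0 fell, against 18.7% and 20.0% of all genes. It was Arrb1, a beta-arrestin of receptor traffic, which went from 22.3 ± 3.36 to 58.4 ± 2.35 (log2 fold change 1.36, adjusted p by limma = 8.98e-06), while Arrb2 was 124 to 139 in WT and 118 to 132 in KO and did not pass.

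Of 14 genes reported to regulate Txnip or to act with it, 3 rose and 4 fell, near the 18.7% and 20.0% of all genes. Prkaa1, a catalytic subunit of AMPK, the energy-sensing kinase that marks Txnip protein for removal, rose from 97.9 ± 4.19 to 134 ± 5.57, and the AMPK subunit Prkag1 fell from 61.8 ± 2.96 to 44.3 ± 1.68. Nlrp3, the inflammasome sensor reported to bind Txnip, fell from 103 ± 28 to 59.4 ± 8.48. The count of higher genes was 1 at an adjusted p under 0.01.

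Glucocorticoids are also known to induce Txnip. Of 14 genes listed for that response 3 rose and 5 fell, against 18.7% and 20.0% of all genes. Their median log2 fold change was -0.34. The list includes the receptor gene itself, Nr3c1, which is among the 5 that fell (log2 fold change -0.19, adjusted p by limma = 0.0255). The Nr3c1 call was lost without WT replicate 1 (0.062), WT replicate 4 (0.0523), KO replicate 1 (0.0674) or KO replicate 3 (0.0718). It was also lost under median centring (0.056). Pdk4 fell from 16.4 ± 2.3 to 5.67 ± 1.04 and Cebpd from 25.7 ± 1.87 to 14.6 ± 2.94. The metallothionein Mt2 rose from 54.6 ± 4.58 to 143 ± 23. Fkbp5 was 187 to 493 in WT and 196 to 398 in KO and did not pass. Tsc22d3 was 222 to 389 in WT and 168 to 247 in KO (adjusted p by limma = 0.0279, and 0.00145 with the replicate block). Its call was lost without WT replicate 1 (0.0618), WT replicate 2 (0.0646), WT replicate 4 (0.0588), KO replicate 2 (0.0757) or KO replicate 3 (0.0741). The 5 lower genes were 8 with the replicate number as a block, and 3 without WT replicate 1, WT replicate 4 or KO replicate 3. The 3 higher genes were 1 without WT replicate 3 or without KO replicate 1, 3 or 4. At an adjusted p under 0.01 there were 1 higher and 2 lower.

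**Figure D5:**
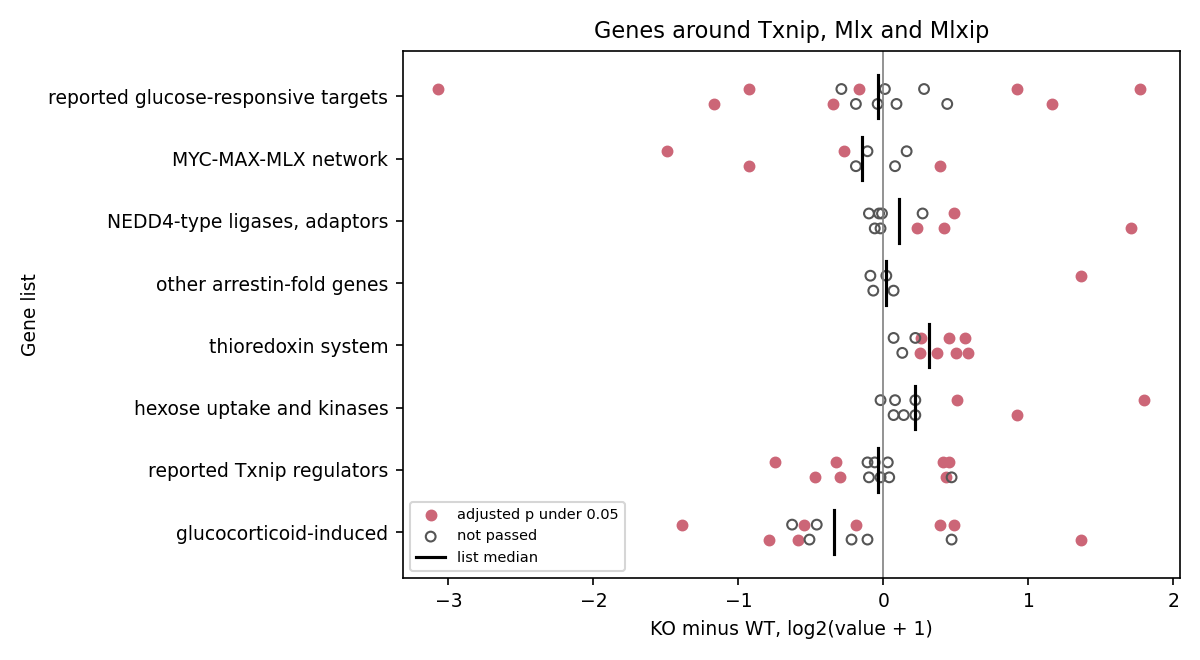
KO minus WT on the log2(value + 1) scale for every tested gene of 8 lists around Txnip, Mlx and Mlxip, filled where the adjusted p was under 0.05, with a bar at each list median. Medians ran from -0.34 for the list labelled glucocorticoid-induced to 0.31 for that labelled thioredoxin system, where 7 of 10 genes rose and 0 fell. The former includes the receptor gene Nr3c1, and the latter also holds thioredoxin-like genes.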

How the data were processed

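Polyadenylated RNA of 8 libraries was sequenced, and the authors deposited a normalised signal for each gene. RSEM 1.3.1, cutadapt 1.7.1, CASAVA 1.8.2, GRCm38 and limma are listed in the submitters' processing notes. No source used here gives the aligner, annotation release or strand setting, though the library kit keeps strand per the labels' protocols. Within a library, all values (100%, tolerance 0.01) were odd multiples of the lowest one, which is what reads plus 0.5 over a scaled library size would give. Depth was read from that spacing.

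Values were tested as log2(value + 1) with limma 3.58.1 in R 4.3.3, two-sided, with a mean-variance trend and Benjamini-Hochberg adjusted p under 0.05. The filter asked for 4 or more libraries with a value of 1 or more, and it kept 12163 rows and left out 204. The steps were tested on simulated data. Members and gene lists were chosen with earlier results of these data known. Named list genes were up to 6 per list by p, plus genes needed to read a member. Scd1, Me1, Txn2, Txnrd2, Hk1, Fkbp5, Arrb2, Dusp1, Zfp36, Siglecf, Car4, Fabp1, Ear1, Ear2, Itgax, Adgre1, C1qa, Chil3, Ms4a1, Psmc3ip and Gm15441, where outside that rule, were chosen after their values were seen. Replicates are separate pools of mice.

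Same-numbered WT and KO libraries pair by the data: deviations from group means correlated at 0.29 to 0.43, while differently numbered ones gave -0.37 to 0.09, and the best match of 8 of 8 libraries had the same number. What a number stands for is not in the labels. Alternatives were other pseudocounts, filters, scalings, weights, thresholds, a replicate block and leaving out libraries.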

Additional observations from a re-analysis of the deposited data

Results flagged for a closer look

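In the search for libraries far from their group, 57 genes named by the rules were read in both genotypes, 114 groups of 4, of which chance flags about 1 in 20. It found 7 values. KO replicate 4 had 76.2 for Arrdc4, against 53.8 to 57.2 in the other KO libraries, 62.5 for the arrestin-fold gene Vps26c, against 52 to 53.1, and 15 for the hexose transporter Slc2a9, against 20 to 20.6. WT replicate 4 had 86.2 for Mga, against 68.1 to 70.6. WT replicate 3 had 13.5 for the ligase Nedd4, against 3.53 to 4.67, and WT replicate 1 had 59.8 for the ligase Wwp1, against 54.2 to 54.8. KO replicate 3 had 55.9 for Foxo3, against 71.9 to 74.8.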

How the results depend on the processing

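The direction of all 7 members and of Tfam held under the 21 alternatives run, and the calls of Arrdc1, Arrdc4 and Tfam held in each. Txnip ranged from -3.03 to -2.74. At an adjusted p under 0.01 the table had 1513 genes higher and 1543 lower, and Arrdc2 (-0.32) and Arrdc3 (-1) were not called. Arrdc2 was not called under quantile normalisation (-0.28) or with both replicate-4 libraries left out (-0.27), and Mlx was called with array quality weights (0.18). Leaving out 1 library at a time gave -0.37 to -0.26 for Arrdc2, -1.19 to -0.78 for Arrdc3, 0.11 to 0.22 for Mlx, 1904 to 2309 genes higher and 1972 to 2451 lower. The cause was not tested. The replicate block called 46.7% of genes in place of 38.7% and changed no call of the 6 members other than Txnip.

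For 49 further named genes, 1023 values were computed: 973 kept direction and side of the threshold, 40 lost the call, 6 gained it and 4 changed sign. The last were Vps26a (0 under quantile normalisation, -0.01 without WT replicate 4 or KO replicate 2, and up to 0.04 without another library) and Myc (-0.01 without KO replicate 4, up to 0.21 without WT replicate 4), neither of which was called. Median centring moved the median of all genes from -0.00633 to 0.0159. The planned tests with edgeR and DESeq2 were not run: the deposited unit is a scaled signal with an offset, and the tests were kept to that unit. Voom weights, no further pseudocount and leaving out both replicate-4 libraries were added after seeing the data. Depth limits the low genes most, with 9 to 186 reads for Gm15441.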

Other observations

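The genes most like Arrdc3 around the group means, chosen for display after its spread was seen, were Btg1 (r = 0.986 over 8 libraries), H2-D1 (0.981), Notch2 (0.974), Phc2 (0.972) and Zfp622 (0.97). The immediate early genes Dusp1 and Zfp36, picked after their values were seen and not called between genotypes, were lowest at replicate number 2 in both genotypes, as Arrdc3 was. Dusp1 was 298 in WT replicate 2 and 138 in KO replicate 2, against 647 to 1063 and 471 to 639 in the other libraries. Zfp36 was 196 and 118 in these libraries, against 426 to 590 and 291 to 416.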
